A study of Mus musculus with 55 samples.

Results

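The genes described here are those of cholesterol and fatty acid synthesis in the mouse optic nerve head (ONH), the short stretch where the axons of retinal ganglion cells leave the eye. The list holds 32 genes chosen by name from these pathways. A gene entered when the array annotation gives it a probe set that names no other gene, and its brightest such probe set stood for it. This left 30 of the 12393 genes that the array measures in this way, 15 sterol enzymes, 3 regulators and 12 fatty acid members. Insig1 and Acsl3 were listed but not analysed here. Transcript levels come from Affymetrix Mouse Genome 430A 2.0 arrays of female C57Bl/6 mice, which were 6 to 8 weeks old at surgery. The left optic nerve was crushed 1 mm from the eyeball for 10 seconds, and crushed ONHs were taken after 1 day or 3 days, after 1 week or 3 weeks, and after 3 months. The uninjured right ONHs of the same mice are the contralateral samples, and naïve mice had no surgery. Each of the 11 conditions had 5 samples, each sample pooled 2 ONHs, and the arrays of 3 months were run and normalized as a separate batch. The dissected tissue held astrocytes, microglia, oligodendrocytes of the beginning myelinated nerve and the ganglion cell axons, so each value is a mix over cell types. The median intensity of an array was 459.2 to 554 up to 3 weeks and 494 to 598 at 3 months, and the number of arrays limits the precision.

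Cholesterol is built from acetyl-CoA through mevalonate, isoprenoids, squalene and lanosterol, and fatty acids are built from the same acetyl-CoA by fatty acid synthase and then lengthened and desaturated. The transcription factor SREBP-2, encoded by Srebf2, drives most sterol genes when cell sterol is low, and SREBP-1, encoded by Srebf1, favours the fatty acid genes. In nervous tissue both pathways supply myelin, and oligodendrocytes and astrocytes carry out much of the synthesis because plasma cholesterol does not cross the blood-brain barrier.

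The sequences just upstream of several members are shown, all from members whose transcripts were lower after the crush. Each is the 250 bases before the annotated start (RefSeq, GRCm38.p6), read along the gene. Capitals mark the CCAAT box, a site of the factor NF-Y, which appears as ATTGG when it lies on the other strand, and a sterol response element. The Hmgcs1 stretch lies on the plus strand at chr13:119690101-119690350, that of Idi1 on the plus strand at chr13:8885356-8885605, and that of Lss on the plus strand at chr10:76531355-76531604. The Cyp51 stretch lies on the minus strand at chr5:4104698-4104947 and that of Acss2 on the plus strand at chr2:155517793-155518042.
Hmgcs1: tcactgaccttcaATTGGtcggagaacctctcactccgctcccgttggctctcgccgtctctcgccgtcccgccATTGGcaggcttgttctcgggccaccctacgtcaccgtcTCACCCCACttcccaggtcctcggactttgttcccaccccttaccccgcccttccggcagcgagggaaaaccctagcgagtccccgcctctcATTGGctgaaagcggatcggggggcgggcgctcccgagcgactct
Idi1: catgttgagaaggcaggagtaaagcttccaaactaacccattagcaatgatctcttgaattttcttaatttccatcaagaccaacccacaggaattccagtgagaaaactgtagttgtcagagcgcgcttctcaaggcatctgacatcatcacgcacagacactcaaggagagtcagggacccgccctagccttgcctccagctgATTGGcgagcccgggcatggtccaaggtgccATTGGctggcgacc
Lss: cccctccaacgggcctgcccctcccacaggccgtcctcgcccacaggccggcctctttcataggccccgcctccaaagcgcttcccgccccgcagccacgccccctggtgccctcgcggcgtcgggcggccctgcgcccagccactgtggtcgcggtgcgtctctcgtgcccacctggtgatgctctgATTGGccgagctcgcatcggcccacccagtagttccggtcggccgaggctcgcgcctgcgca
Cyp51: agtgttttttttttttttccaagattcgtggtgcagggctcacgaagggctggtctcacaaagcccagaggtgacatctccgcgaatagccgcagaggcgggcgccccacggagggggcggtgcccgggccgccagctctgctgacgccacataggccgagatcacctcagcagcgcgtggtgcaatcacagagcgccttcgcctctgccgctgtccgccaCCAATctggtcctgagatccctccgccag
Acss2: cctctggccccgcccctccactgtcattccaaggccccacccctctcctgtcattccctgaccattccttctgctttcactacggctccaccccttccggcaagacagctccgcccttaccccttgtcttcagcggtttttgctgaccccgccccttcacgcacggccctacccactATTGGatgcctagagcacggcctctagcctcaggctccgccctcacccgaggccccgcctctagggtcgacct
Upstream sequences were at hand for 23 of the 30 measured members. The motif CCAAT, searched on both strands over all listed starts of a gene, was found for 12 of 12 sterol enzymes and 5 of 9 fatty acid members, and 37.49% of the 27025 genes with such a stretch hold it in the same count by gene. The element TCACNCCAC, also searched on both strands, was found for 1.22% of all genes and for 1 member, Hmgcs1, where it reads TCACCCCAC and begins 137 bases before the start. A match is a match of letters in this window and says nothing of which factor binds there.

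Many members of these pathways were lower in crushed than in contralateral ONHs from 1 day to 3 weeks, with the most calls among the sterol enzymes at 1 week. In bulk samples fewer cells of a type and less RNA per cell cannot be told apart. A member is said to have fallen or risen when limma gave an adjusted p below 0.05, and to be called when its levels also differed 2-fold or more. At 1 week 10 of 30 members were called lower, against 3.53% of all probe sets tested. At 3 weeks 7 members were called lower, against a background of 1.75%. These calls at 3 weeks depend on the setting. By the study's 3 criteria, rebuilt here from the deposited intensities, 0 members were called. With the oligodendrocyte covariate described further on 0 were called, and by the methods' t-test after adjustment 2, Cyp51 and Acss2. At 1 day 2 members were called lower with 7.44% of all probe sets, a share of members near the background, and at 3 days 2 members with 2.2%. No member was called higher at any of these times, while 7.02%, 6.6%, 6.21% and 2.36% of all probe sets were at 1 day, 3 days, 1 week and 3 weeks. By the adjusted p alone 19 members fell at 1 day and 20 at 3 days, then 25 at 1 week and 18 at 3 weeks, against 28%, 15.2%, 19.2% and 12.1% of all probe sets. In the other direction only Ebp and Elovl1 passed, both at 3 days, against 25.8%, 25.2%, 23% and 10.4% of all probe sets at the successive times.

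**Figure D1:**
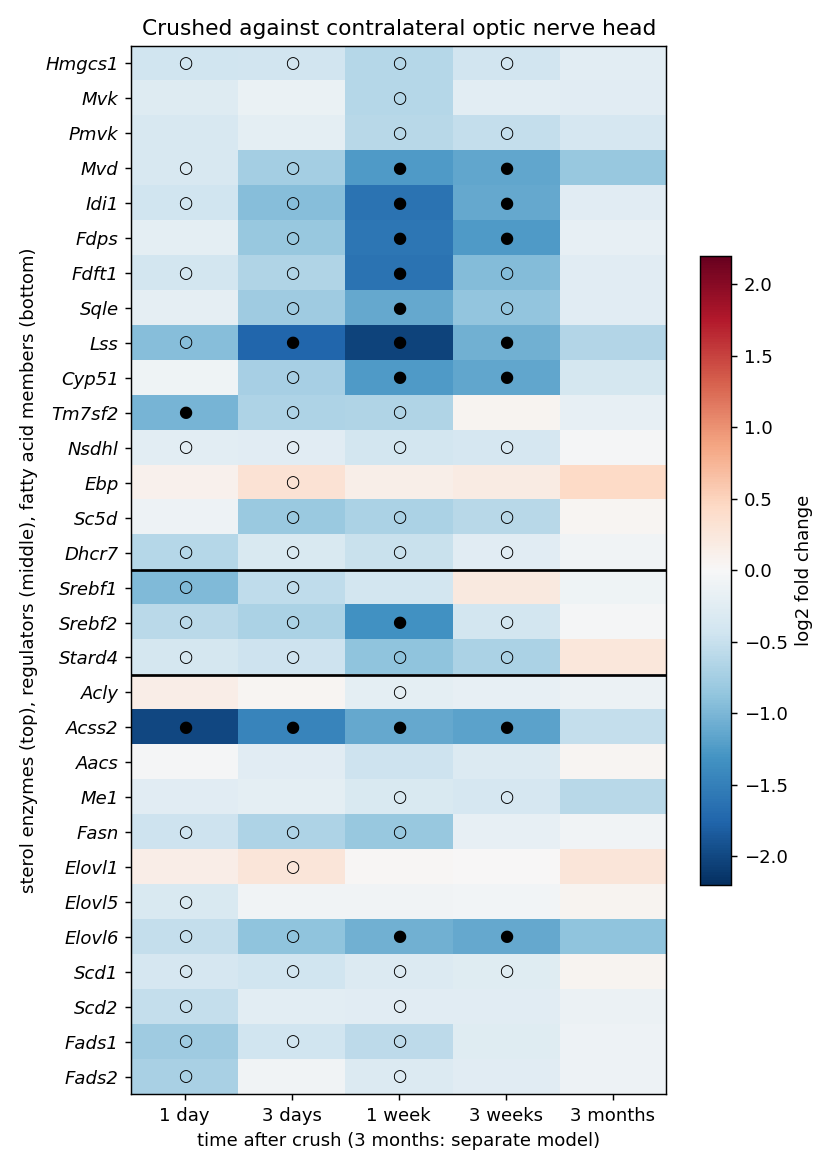
Log2 fold change of crushed over contralateral ONHs for the 30 measured members (rows) at each time (columns), with blue for lower and red for higher levels. Filled circles mark called members, open circles those that passed by the adjusted p alone, and the filled circles gather among the sterol enzymes at 1 week and 3 weeks.

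The sterol and fatty acid branches are set side by side next. The median log2 fold change of the 15 sterol enzymes was -0.35, -0.68, -0.70 and -0.61 at 1 day, 3 days, 1 week and then 3 weeks. The 12 fatty acid members had medians of -0.41, -0.23, -0.32 and -0.26 at the same times, and the medians of all probe sets tested lay between -0.03 and 0.04. At 1 day 8 of 15 sterol enzymes and 8 of 12 fatty acid members fell, while at 3 weeks 12 sterol enzymes and 4 fatty acid members did. Of all probe sets 28% fell at 1 day and 12.1% at 3 weeks. At 1 week 7 of 15 sterol enzymes and 2 of 12 fatty acid members were called lower, against 3.53% of all probe sets. These counts and medians describe the branches, whose difference was not tested.

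**Figure D2:**
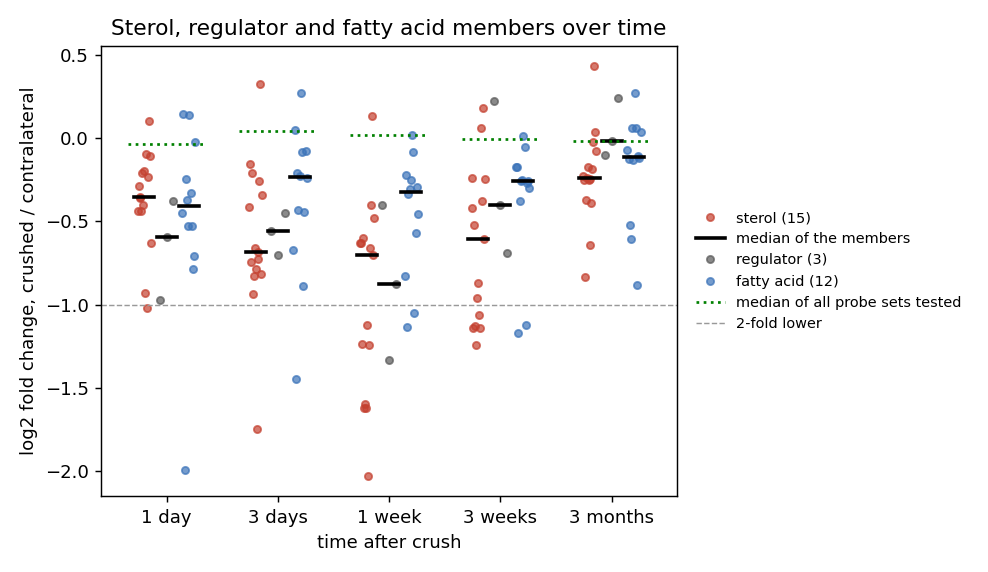
Log2 fold change of crushed over contralateral ONHs (vertical axis) by time after crush (horizontal axis). Each point is 1 member, thick bars are the median of a branch, dotted lines the median of all probe sets tested, and the dashed line a 2-fold lower level; the sterol median moves from -0.35 at 1 day to -0.70 at 1 week while that of the fatty acid members moves from -0.41 to -0.32.

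Lss had the largest fall of the sterol enzymes at 3 days and 1 week, but not at 1 day or 3 weeks. Lss encodes lanosterol synthase, which closes squalene epoxide into the first sterol ring system. Lss read 982, 850.2, 951, 864 and 919.7 in the naïve samples. At 1 day its intensities were 1208, 1084, 1249, 814 and 931 in the contralateral and 743, 469, 639.6, 556 and 398 in the crushed samples, and at 3 days 1128, 1217, 1049, 1245 and 1268 against 269, 487, 335, 350.2 and 342. The ranges were apart at both times. Here and later, where values stand against each other, the contralateral samples come first, each in the order of replicates 1 to 5. At 1 week it read 1325, 1486, 1238, 1137 and 973 in the contralateral and 260.4, 265, 334, 280.4 and 368 in the crushed samples, and at 3 weeks 978, 901, 1113, 972 and 1361 against 480.5, 518, 528, 526 and 472. All crushed values of these times lay below all contralateral ones. The log2 fold change was -0.93 (SE 0.14, adjusted p = 1.6e-05) at 1 day, -1.75 (SE 0.14, adjusted p = 8.7e-09) at 3 days, -2.03 (SE 0.14, adjusted p = 2.4e-09) at 1 week and -1.06 (SE 0.14, adjusted p = 2.9e-05) at 3 weeks. Each fit was repeated without the samples of 1 replicate number, a pair at every time. Without pair 5 the value at 3 weeks was -0.95 and not called, and without pair 4 the value at 1 day was -1.03 and called. The 2 dimmer Lss probe sets had -0.26 and -0.14 at 1 day, both short of the threshold, while both had -1.14 at 1 week and were called.

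Idi1, Fdps and Fdft1 stand at successive points of the isoprenoid route. Idi1 encodes isopentenyl diphosphate isomerase, which readies the building block of all isoprenoids. Idi1 read 2439, 2492, 2123, 2195 and 2964 in the naïve samples. At 1 day it read 3299, 3089.6, 3367, 2505 and 2620.2 in the contralateral and 3032, 1768, 2389, 2236 and 1715 in the crushed samples, which overlapped. By 3 days the values were 2757, 2720.1, 2557, 2624 and 2706 against 1557, 1688, 1015, 1289 and 1534, and by 1 week 2816, 3512, 2572, 3111 and 3011 against 922, 1032, 1159, 728 and 1084. Crushed values lay below all contralateral ones at both times. The samples of 3 weeks also stayed apart, with 2994, 2873, 3094, 3949 and 3917 in the contralateral and 1462, 1336, 1908, 1666 and 1315 in the crushed ONHs. Fitted over pairs, Idi1 had a log2 fold change of -0.44 (SE 0.13, adjusted p = 0.0069) at 1 day, -0.94 (SE 0.13, adjusted p = 8.1e-06) at 3 days, -1.62 (SE 0.13, adjusted p = 9.8e-09) at 1 week and -1.13 (SE 0.13, adjusted p = 5.0e-06) at 3 weeks, and the crushed sample was lower in 5 of 5 pairs each time. Without pair 2 the value at 3 days was -1.0 and called. A dimmer Idi1 probe set had -1.23 at 3 days and -1.96 at 1 week.

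Fdps encodes farnesyl diphosphate synthase, whose product feeds sterols, ubiquinone and protein prenylation. Fdps read 1556, 1388, 1447, 1395 and 1763 in the naïve samples. Its contralateral values at 1 day were 1945, 1837, 2075, 1297 and 1407 and its crushed values 2028, 1249, 1677, 1363 and 1120.1. The groups overlapped, and Fdps did not pass the test at 1 day, with -0.21 (SE 0.15, adjusted p = 0.24). Its values parted at 3 days, with 1913, 1877, 1585, 1880.0 and 1659.9 in the contralateral and 1155, 1224, 781, 826 and 1095 in the crushed samples. Every crushed value was then below every contralateral one, as it was at 1 week, with 1554, 2039, 1639, 1792 and 1421 against 500.4, 542, 738, 427 and 612, and at 3 weeks, with 1401, 1696, 1731, 2034 and 2186 against 748, 541, 1063, 808 and 712. Its log2 fold change was -0.83 (SE 0.15, adjusted p = 0.00015) at 3 days, -1.60 (SE 0.15, adjusted p = 6.5e-08) at 1 week and -1.24 (SE 0.15, adjusted p = 8.1e-06) at 3 weeks. Averaged with a second probe set that was too dim to be tested, the value of Fdps was -0.80 at 1 week and -0.62 at 3 weeks and was not called.

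Fdft1 encodes squalene synthase, the first enzyme committed to sterols. Fdft1 read 2748, 2616, 2379, 2518 and 2738 in the naïve samples. Contralateral and crushed samples overlapped at 1 day, with 3495, 3332, 3685, 2450.1 and 2804 against 3335, 2059, 2749, 2384 and 1631. They were apart at 3 days, with 3058, 2834, 2278, 2520.0 and 2323 against 1632, 2011, 1311, 1609 and 1696. At 1 week, again apart, Fdft1 read 3622, 3616, 4138, 3341 and 2174 in the contralateral and 892, 1046, 1446, 1045 and 1003 in the crushed samples. At 3 weeks the intensities were 2683, 2388, 2676, 3302 and 3474 against 1493, 1503, 1704, 1562 and 1188, without overlap. Fdft1 had a log2 fold change of -0.40 (SE 0.13, adjusted p = 0.016) at 1 day, -0.66 (SE 0.13, adjusted p = 0.00054) at 3 days, -1.62 (SE 0.13, adjusted p = 1.5e-08) at 1 week and -0.96 (SE 0.13, adjusted p = 4.0e-05) at 3 weeks. Without pair 2 or 3 the last value was -1.03 or -1.04 and called. A second bright probe set of Fdft1 had -1.59 at 1 week, while the dimmest one tested, close to background, had 0.09, and averaged over its probe sets Fdft1 had -0.78 and was not called.

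Of the enzymes that precede Idi1, Mvd was called and Hmgcs1, Mvk and Pmvk were not. Hmgcs1, which encodes the HMG-CoA synthase that opens the pathway, fell at all 4 times, by 0.44, 0.42, 0.63 and 0.42 on the log2 scale, and its ranges did not overlap at any of them. This is the brightest probe set of the sterol enzymes, at a mean intensity of 8370, and the dimmest of the 3 other Hmgcs1 probe sets had -0.995 at 1 week and -0.991 at 3 weeks. The mevalonate kinase gene Mvk passed the test at 1 week, with -0.63 (SE 0.15, adjusted p = 0.0017), and the phosphomevalonate kinase gene Pmvk at 1 week and 3 weeks, with -0.60 (SE 0.16, adjusted p = 0.0039) and -0.52 (SE 0.16, adjusted p = 0.020). Mvd encodes mevalonate diphosphate decarboxylase and was called at 1 week, with -1.24 (SE 0.14, adjusted p = 8.5e-07), and at 3 weeks, with -1.14 (SE 0.14, adjusted p = 1.1e-05). Mvd had -0.36 at 1 day and -0.74 at 3 days and fell at both times.

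Among the enzymes after squalene, Sqle, Cyp51 and Sc5d did not pass the test at 1 day and fell at the later times. Sqle, squalene epoxidase, had -0.20 (SE 0.12, adjusted p = 0.17) at 1 day, -0.79 at 3 days, -1.12 (SE 0.12, adjusted p = 3.2e-07) at 1 week and -0.87 at 3 weeks. Cyp51, which encodes the demethylase of lanosterol, read 3295, 3142, 3835, 2783 and 3012 in the contralateral and 3857, 2396, 3533, 3009 and 2435 in the crushed samples at 1 day. The corresponding intensities at 1 week were 3061, 3493, 3161, 3011 and 2727 against 1255, 1502, 1337, 1104 and 1334. Its log2 fold change was -0.10 (SE 0.10, adjusted p = 0.42) at 1 day, -0.73 (SE 0.10, adjusted p = 4.3e-06) at 3 days, -1.24 (SE 0.10, adjusted p = 5.8e-09) at 1 week and -1.14 (SE 0.10, adjusted p = 1.5e-07) at 3 weeks, so that the groups overlapped at 1 day and were apart at the later times. Sc5d, a sterol desaturase, had -0.11 at 1 day and -0.82 at 3 days, then -0.70 at 1 week and -0.61 at 3 weeks, and passed the test at the last 3 of these. A dim second probe set of Sc5d was already called lower at 1 day, with -1.48.

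Tm7sf2, a sterol reductase, was called at 1 day and did not pass at 3 weeks. It read 644, 678, 696, 594 and 541 in the contralateral and 463, 233, 349, 407 and 187 in the crushed samples at 1 day, which did not overlap. At 3 weeks the values were 787, 908, 806, 1019.5 and 1057 against 991, 724, 1132, 925 and 1024, which did. Its log2 fold change was -1.02 (SE 0.15, adjusted p = 1.0e-05) at 1 day, -0.68 at 3 days, -0.66 at 1 week and 0.06 (SE 0.15, adjusted p = 0.82) at 3 weeks. Without pair 2 or pair 5 its value at 1 day was -0.89 and was not called. Dhcr7, the reductase of the last step, fell most at 1 day, by 0.63, and by 0.34, 0.48 and 0.25 on the log2 scale at the later times. Nsdhl, a sterol dehydrogenase, fell at all 4 times, by 0.23 to 0.40. Ebp, the sterol isomerase, was the one sterol enzyme with a positive value at all 4 times. Its rise at 3 days, 0.33 (SE 0.11, adjusted p = 0.022), was seen in 3 of 5 pairs and did not pass after quantile normalization or a shift to a common median.

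**Figure D3:**
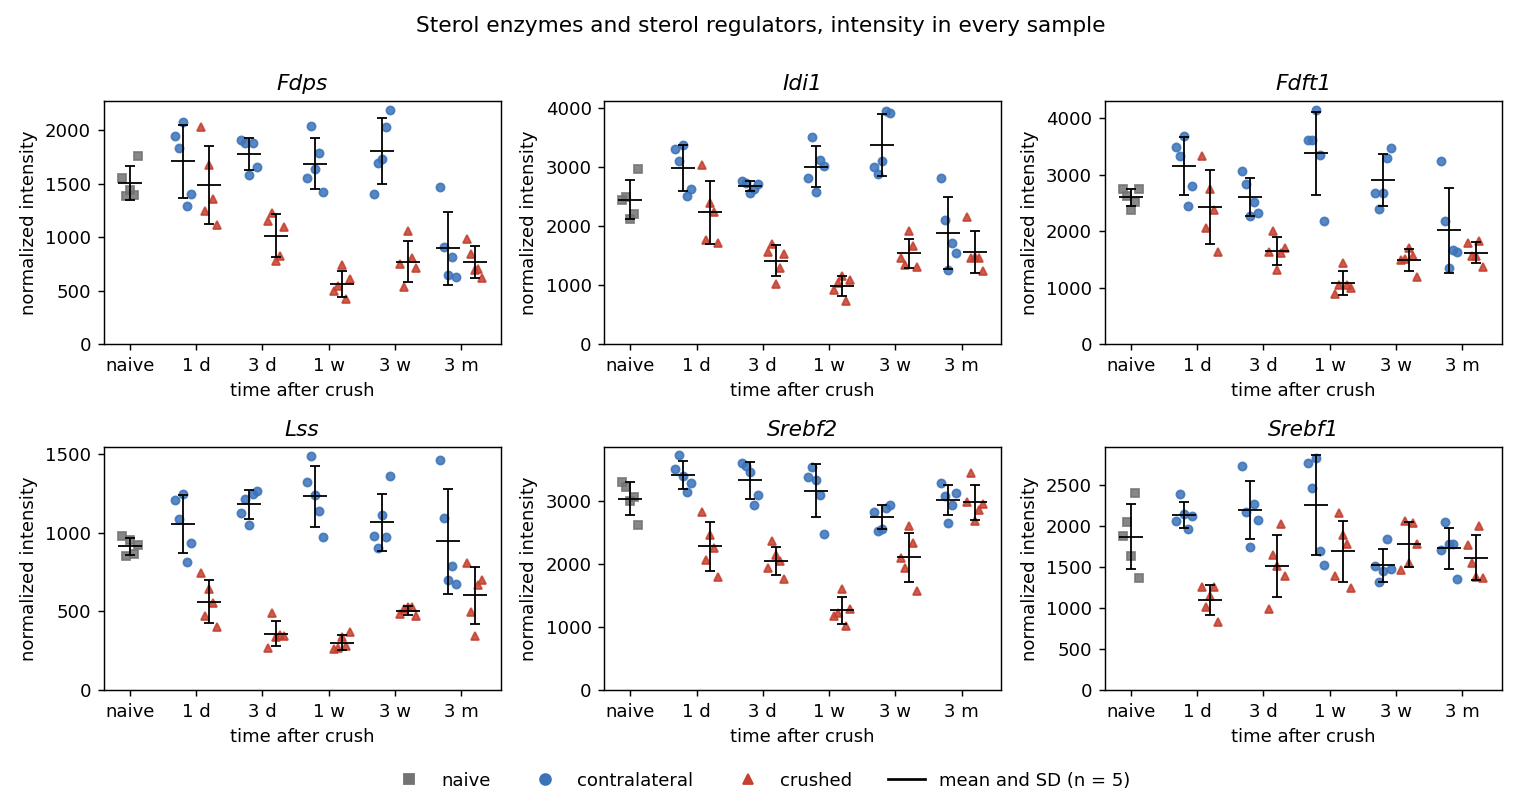
Normalized intensity (vertical axes, from 0) of 4 sterol enzymes and the SREBP genes in every sample, by time after crush (horizontal axes). Squares are naïve, circles contralateral and triangles crushed samples, and bars give mean and SD of 5 samples; crushed Fdps, Idi1 and Fdft1 overlap the contralateral samples at 1 day and lie below all of them at 1 week, whereas Srebf1 is apart at 1 day and overlaps at 1 week and 3 weeks.

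Of the regulators, Srebf2 was called at 1 week, while Srebf1 and Stard4 fell without being called at any time. Srebf2 read 3302, 3223, 3005, 3071 and 2622 in the naïve samples. Its intensities at 1 day were 3521, 3736, 3398, 3144 and 3296 in the contralateral and 2834, 2067, 2463, 2261 and 1796 in the crushed samples, and at 3 days 3606, 3557, 3471, 2948 and 3098 against 1934, 2369, 2140.0, 2057 and 1769. Neither time showed overlap. By 1 week Srebf2 read 3387, 3551, 3338, 3099 and 2485 in the contralateral and 1176, 1230.1, 1612, 1019.8 and 1285 in the crushed samples, again apart. By 3 weeks it read 2837, 2521, 2568, 2893 and 2947 against 2092, 1948, 2609, 2335 and 1576, with 1 crushed sample above part of the contralateral ones. Srebf2 had a log2 fold change of -0.60 (SE 0.12, adjusted p = 0.00018) at 1 day, -0.70 (SE 0.12, adjusted p = 5.9e-05) at 3 days, -1.33 (SE 0.12, adjusted p = 2.6e-08) at 1 week and -0.40 (SE 0.12, adjusted p = 0.016) at 3 weeks. A dimmer Srebf2 probe set moved less, with -0.13 at 1 day and -0.86 at 1 week.

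Srebf1 read 1879, 2044, 1637, 2404 and 1366 in the naïve samples. Its values at 1 day were 2058, 2387, 2145, 1961 and 2124 in the contralateral and 1251, 1006, 1149, 1252 and 832 in the crushed samples, without overlap. At 3 days they were 2723, 2164, 1745, 2259.7 and 2071 against 990.0, 1648, 1505, 2024 and 1393, and at 1 week 2766, 2456, 2829, 1695 and 1526 against 1383, 2158, 1881, 1778 and 1242. The groups overlapped at both times and again at 3 weeks, when Srebf1 read 1514, 1311, 1443, 1841 and 1469 in the contralateral and 1456, 2054, 1546, 2029 and 1778 in the crushed samples. For Srebf1 the log2 fold change was -0.97 (SE 0.16, adjusted p = 4.0e-05) at 1 day and -0.56 (SE 0.16, adjusted p = 0.0094) at 3 days, then -0.40 (SE 0.16, adjusted p = 0.054) at 1 week and 0.22 (SE 0.16, adjusted p = 0.37) at 3 weeks. Without pair 1 or pair 4 the value at 1 day was -1.04 or -1.05 and called.

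Stard4 encodes a protein that carries sterol between membranes and is a known SREBP target. Stard4 read 1426, 1349, 1068, 1130.1 and 1929 in the naïve samples. At 1 day it read 1532, 1589.9, 1450.0, 1352 and 1489.7 in the contralateral and 1491, 925, 1134, 1158 and 1053 in the crushed samples, and at 3 days 1216, 1191, 1259.6, 1005 and 1341 against 1035, 1035, 823, 789.7 and 736. Both times had overlap. At 1 week the values were 1154, 1177, 1253, 1507 and 1428 against 677, 574, 841, 634 and 843, and at 3 weeks 1535, 1514, 1594, 1542 and 1500.3 against 1005, 914, 965, 1045 and 853. The groups were then apart. Stard4 had a log2 fold change of -0.38 (SE 0.11, adjusted p = 0.0066) at 1 day, -0.45 (SE 0.11, adjusted p = 0.0027) at 3 days, -0.88 (SE 0.11, adjusted p = 3.0e-06) at 1 week and -0.69 (SE 0.11, adjusted p = 0.00017) at 3 weeks. A dim second probe set of Stard4 pointed up, with 0.49 at 1 day and 0.52 at 3 days, both with an adjusted p under 0.05.

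Among the fatty acid members, Acss2 and Elovl6 were called. Acss2 encodes the acetyl-CoA synthetase of cytosol and nucleus, which makes acetyl-CoA from acetate. Acss2 read 1971, 2221, 1992, 2198 and 2347 in the naïve samples. At 1 day its contralateral values were 2823, 2420.3, 3138, 2313 and 2534 and its crushed values 885, 599.5, 796, 602 and 489.8, and after 3 days they were 2647, 2303, 2204, 3140.4 and 2872 against 714, 1226, 882, 1085 and 967. No crushed sample reached the contralateral range at either time. At 1 week the values were 3101, 3103, 3516, 2485 and 1872 against 900.0, 1081, 2129.6, 1174 and 1279, and at 3 weeks 2405, 2316, 2453, 2863 and 2999.9 against 875, 1353, 1208, 1068 and 1323. The groups overlapped at 1 week through crushed sample 3. Acss2 had a log2 fold change of -1.996 (SE 0.15, adjusted p = 2.2e-09) at 1 day, -1.45 (SE 0.15, adjusted p = 3.3e-07) at 3 days, -1.13 (SE 0.15, adjusted p = 7.3e-06) at 1 week and -1.17 (SE 0.15, adjusted p = 2.3e-05) at 3 weeks, with the crushed sample lower in 5 of 5 pairs each time. Without pair 1 the value at 1 week was -0.97 and was not called. A dimmer Acss2 probe set had -2.13, -1.60, -1.48 and -1.49 at these times.

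Elovl6 encodes the elongase that turns palmitate into stearate. Elovl6 read 1157, 1124, 979, 1046 and 721 in the naïve samples. Its contralateral and crushed samples overlapped at 1 day, with 1387, 1192, 1379, 1028 and 938 against 1047, 627, 1067, 819 and 616, and not at 3 days, with 1354, 1289, 1062, 1384 and 1371 against 612, 914, 581, 612 and 821. At 1 week they read 1147, 1392, 1147, 1497 and 945 against 596, 678, 545, 526 and 587, and at 3 weeks 967, 985, 1089, 1099.7 and 1395 against 425, 646, 708, 374 and 445. The groups stayed apart. Elovl6 had a log2 fold change of -0.53 (SE 0.15, adjusted p = 0.0052) at 1 day, -0.89 (SE 0.15, adjusted p = 7.7e-05) at 3 days, -1.05 (SE 0.15, adjusted p = 1.1e-05) at 1 week and -1.12 (SE 0.15, adjusted p = 2.4e-05) at 3 weeks. Without pair 4 the value at 1 week was -0.94, and without pair 5 that at 3 weeks was -0.99, neither called. Averaged over its 2 probe sets, Elovl6 was not called at 1 week but was at 3 weeks.

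**Figure D4:**
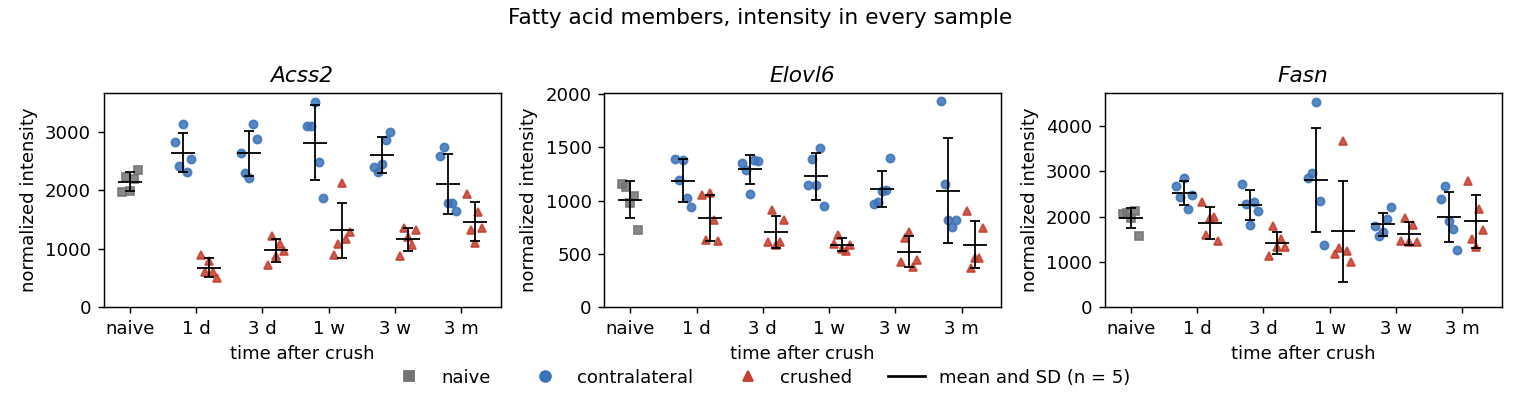
Normalized intensity (vertical axes, from 0) of Acss2, Elovl6 and Fasn in every sample, by time after crush (horizontal axes). Squares are naïve, circles contralateral and triangles crushed samples, with mean and SD of 5 samples; crushed Acss2 is lowest at 1 day, between 490 and 885, and 1 crushed sample of Fasn at 1 week reads 3667.

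The remaining fatty acid members fell by less or not at all. The desaturase genes of polyunsaturated fatty acids were lowest at 1 day, Fads1 with -0.78 (SE 0.10, adjusted p = 2.3e-06) and Fads2 with -0.71 (SE 0.11, adjusted p = 1.2e-05), and at 3 weeks they had -0.27 and -0.26 and did not pass. The stearoyl-CoA desaturase genes Scd1 and Scd2 fell by 0.37 and 0.53 on the log2 scale at 1 day. These were the brightest probe sets of all members, with mean intensities of 10177 and 11340, and dimmer probe sets of Scd1 and Scd2 had -1.04 and -1.46 at 1 day and were called. Elovl5, an elongase of polyunsaturated fatty acids, fell at 1 day alone, by 0.33. Elovl1, which elongates very long saturated chains, had 0.27 (SE 0.10, adjusted p = 0.044) at 3 days, higher in 4 of 5 pairs, and like Ebp did not pass after either other scaling. Acly, ATP-citrate lyase and the other cytosolic source of acetyl-CoA, had 0.15 at 1 day (adjusted p = 0.12) and -0.22 (SE 0.08, adjusted p = 0.029) at 1 week, and the dimmest of its probe sets tested had 0.97 at 1 day. Me1, a malic enzyme that supplies NADPH, fell at 1 week and 3 weeks, by 0.34 and 0.38. Aacs, which activates acetoacetate, did not pass from 1 day to 3 weeks, with values between -0.46 and -0.02.

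Fasn, fatty acid synthase, fell at the first 3 times, by 0.45, 0.67 and 0.83 on the log2 scale, and had -0.17 (adjusted p = 0.45) at 3 weeks. At 1 week Fasn read 2856, 2970.4, 4538, 2347 and 1372 in the contralateral and 1172, 1308, 3667, 1249 and 999.8 in the crushed samples. Pair 3 of 1 week stood apart. Its crushed sample read 548 for Aacs, where the other 4 read 134 to 209, and 11838 for Scd1, where the others read 7509 to 8706. The summed intensity of 6 adipocyte markers was 13878 in its contralateral and 20552 in its crushed sample, against 106 to 470.5 in the other contralateral and 1418 to 6004 in the other crushed samples of 1 week. Without pair 3 of 1 week, a choice made after seeing the data, Fasn had -0.96 (adjusted p = 8.9e-05) and Aacs -0.69 (adjusted p = 0.010) at 1 week, Acss2 had -1.23, and 10 members were called lower, against 3.51% of all probe sets in that fit. With the mean level of the adipocyte markers as a covariate, likewise added, 6 sterol enzymes and Srebf2 were called at 1 week and no fatty acid member, against 2.77% of all probe sets in that fit. The list names 8 adipocyte markers, of which 6 were measured and 5 were bright enough to be tested from 1 day to 3 weeks. Of these Fabp4, which macrophages also express, rose at 3 days, 1 week and 3 weeks while Adipoq did not pass at any time.

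The difference between early and late members was tested as a change of the fold change between times. From 1 day to 3 weeks 2 members were called as moving down, against 6% of all probe sets, and 2 as moving up, against 6.8%. These 4 members of 30 are a share near the 12.8% of all probe sets called in either direction. Cyp51 moved by -1.04 (SE 0.13, adjusted p = 6.0e-06) and Fdps by -1.03 (SE 0.21, adjusted p = 0.00068). Srebf1 moved by 1.19 (SE 0.23, adjusted p = 0.00041) and Tm7sf2 by 1.08 (SE 0.21, adjusted p = 0.00054). Without pair 4 the changes of Cyp51 and Fdps were -0.98 and -0.94, without pair 1 that of Cyp51 was -0.93, without pair 5 that of Fdps was -0.96, and without pair 3 or pair 5 that of Tm7sf2 was 0.98, none of which reached the 2-fold threshold. Srebf1 was called in every fit that left out a pair. By the adjusted p alone 9 members moved down, against 18.8% of all probe sets, and 7 moved up, against 18.4%. The 9 were Mvd, Idi1, Fdps, Fdft1, Sqle, Cyp51, Sc5d, Acly and Elovl6, and the 7 were Tm7sf2, Dhcr7, Srebf1, Acss2, Elovl5, Fads1 and Fads2. No member was called between 1 day and 3 days, between 3 days and 1 week or between 1 week and 3 weeks, where 4.93%, 3.12% and 4.5% of all probe sets were.

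Uninjured contralateral ONHs were also set against naïve ones, with the caution that the contralateral samples enter both comparisons. The same naïve samples served all 4 times, and the age of the naïve mice at harvest is not stated. The part of age in these differences was not tested. No member was called at 1 day, 3 days, 1 week or 3 weeks, and 0%, 0%, 0.112% and 0.691% of all probe sets were. At an unadjusted p under 0.05 limma counted 8, 5, 9 and 5 members higher in the contralateral samples, against 4.97%, 3.75%, 9.83% and 13.4% of all probe sets. It counted 0, 0, 0 and 3 members lower, against 1.82%, 1.79%, 4.57% and 14.3%. Medians over the 30 members were between 0.13 and 0.16 at the 4 times, and those over all probe sets between 0.01 and 0.05. At 3 weeks 4 members passed by the adjusted p alone, against 10.1% of all probe sets. Idi1 was higher in the contralateral samples by 0.46 (SE 0.11, adjusted p = 0.012), Tm7sf2 by 0.42 (SE 0.11, adjusted p = 0.017) and Cyp51 by 0.32 (SE 0.09, adjusted p = 0.027), and Fads1 was lower by 0.25 (SE 0.08, adjusted p = 0.048).

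At 3 months no member passed the test in either direction, in a batch in which 0.207% of all probe sets were called higher and 0.255% lower, or 0.223% and 0.377% by the adjusted p alone. At an unadjusted p under 0.05 limma counted 8 members lower and 1 higher, against 7.38% and 6.69% of all probe sets. Lss read 1466, 1097, 699, 786 and 675 in the contralateral and 805, 498, 345, 666 and 701 in the crushed samples, with -0.64 (SE 0.22, adjusted p = 0.27). Idi1 read 2811, 2095, 1255, 1708 and 1540.3 against 2159, 1456, 1485, 1462 and 1233. Fdps read 1473, 914, 649, 819.5 and 634 against 987, 845, 691, 703 and 617, and its log2 fold change was -0.17. The groups of all of these overlapped. Fdft1 read 3245, 2174, 1345, 1668 and 1636 against 1799, 1561, 1556, 1824 and 1368. Srebf2 read 3295, 3088, 2659, 2946 and 3130.0 against 2989, 3444, 2691, 2862 and 2953, with -0.02 (SE 0.09). Contralateral sample 1 was the highest contralateral one for Lss, Idi1, Fdps and Fdft1. Srebf1 read 1701, 2041, 1773, 1779 and 1345 against 1763, 1551, 1378, 1999.9 and 1369. Stard4 read 1263, 793, 831, 1100.5 and 1412 against 1438, 1854, 1477, 911 and 831. Acss2 read 2579.8, 2736, 1786, 1789.6 and 1643 against 1938, 1314, 1095, 1633 and 1347. The log2 fold changes of these genes were -0.10, 0.24 and -0.52. Elovl6 read 1930.3, 1156, 816, 747 and 816 against 898, 367, 461, 462 and 739, with -0.88 (SE 0.23, adjusted p = 0.16) and the crushed sample lower in 5 of 5 pairs. Me1 had -0.61 (SE 0.11, adjusted p = 0.069) and Mvd -0.83 (SE 0.24, adjusted p = 0.21). The summed adipocyte markers ranged from 561 to 5600 in the contralateral and from 669 to 11088 in the crushed samples of 3 months, and their part in these values was not tested.

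Other genes of the pathways, from lists named by function, gave a mixed picture. Of 4 measured genes of sterol synthesis outside the members, Msmo1, the sterol methyl oxidase, was called lower at 1 week with -1.18 (SE 0.07, adjusted p = 2.2e-10), and was also lower at 3 days and 3 weeks, with -0.89 and -0.95. At 1 day Msmo1 had risen, by 0.18 (adjusted p = 0.026). Hsd17b7, a sterol reductase, fell at 3 days, 1 week and 3 weeks, by 0.99, 0.86 and 0.80 on the log2 scale. Lbr, which has sterol reductase activity, rose at 3 days and 1 week, by 0.36 and 0.20, and Ggps1, which makes a longer isoprenoid, fell at 3 days, by 0.28. Of 12 measured genes of sterol sensing and uptake none was called lower, while Lipa, the lysosomal acid lipase, was called higher at 3 days and 1 week, with 1.11 and 1.48, Scarb1, a lipoprotein receptor, at 3 days with 1.02, and Mylip, which marks the LDL receptor for breakdown, at 1 week and 3 weeks with 1.41 and 1.06. Of 12 measured genes of sterol export and storage, Apoc1, an apolipoprotein, was called higher at 1 week and 3 weeks, with 3.15 and 2.98, and Ch25h, which makes an oxysterol, at 1 day and 3 days, with 1.54 and 1.496. Cyp27a1, which oxidizes the cholesterol side chain, was called lower at 1 day and 3 days, with -2.24 and -1.53. In this list 3 genes were called lower at 1 day, 2 at 3 days and 1 at 1 week, and 1, 1, 2 and 1 were called higher at the successive times. Over all probe sets 7.44%, 2.2%, 3.53% and 1.75% were called lower from 1 day to 3 weeks, and 7.02%, 6.6%, 6.21% and 2.36% higher.

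Of 19 other measured genes of fatty acid synthesis none was called higher from 1 day to 3 weeks. At 1 day, 3 days, 1 week and 3 weeks 3, 1, 3 and 1 were called lower. Of all probe sets 7.44%, 2.2%, 3.53% and 1.75% were called lower at these times, and 7.02%, 6.6%, 6.21% and 2.36% higher. Acacb, an acetyl-CoA carboxylase, had -2.48 (SE 0.18, adjusted p = 1.1e-09) at 1 day and -1.49 at 1 week. Acsl6, an acyl-CoA synthetase, had -1.03 at 3 days and -1.69 at 1 week, and Elovl7, an elongase, had -1.01 at 1 day and -1.59 at 3 weeks. Of 20 measured genes of fatty acid oxidation 2 were called, both lower at 1 day, a share near the 7.44% of all probe sets. These were Ppargc1a, a transcriptional coactivator, with -1.95 and Ppara, a nuclear receptor for fatty acids, with -1.33. Over these 20 genes the median was -0.17 at 1 day and between -0.02 and 0.10 at the later times up to 3 weeks.

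Markers of oligodendrocytes, the myelin-forming cells, moved with the members in part. Of 11 measured markers 7 were called lower at 1 day and 2 at 3 days, then 6 at 1 week and 5 at 3 weeks. The shares of all probe sets were 7.44%, 2.2%, 3.53% and 1.75%. By the adjusted p alone 11, 9, 10 and 10 markers fell, against 28%, 15.2%, 19.2% and 12.1% of all probe sets. At 3 months 2 markers, Mobp and Mag, were called lower, against 0.255% of all probe sets. The summed intensity of the 11 markers was 73017 to 81818 in the contralateral and 35975 to 57649 in the crushed samples at 1 day. At 1 week it was 69677 to 85323 and 34443 to 51597. At 3 weeks it was 69626 to 77233 and 38535 to 60041, and at 3 months 66387 to 84059 and 40689 to 52138. None of these markers was under an intensity of 50 in any sample. The median log2 fold change of the markers was -1.20 at 1 day, -0.61 at 3 days, -1.06 and -0.85 at 1 week and 3 weeks, and -0.67 at 3 months. That of the sterol enzymes was -0.35, -0.68, -0.70, -0.61 and -0.24 at the same times, and the part of the oligodendrocytes in it was not tested. With the mean level of the oligodendrocyte markers as a covariate, an alternative added after seeing the data, 1 member was called lower at 1 day, 2 at 3 days, 7 at 1 week and none at 3 weeks, against 3.42%, 1.44%, 1.11% and 0.124% of all probe sets in that fit. The 7 were Lss, Idi1, Fdft1, Fdps, Cyp51, Mvd and Srebf2, and Lss had -1.77 (SE 0.29, adjusted p = 0.0013) and Fdps -1.62 (SE 0.31, adjusted p = 0.0035) at 1 week. By the adjusted p alone 1, 10, 10 and 1 members then fell, against 4.91%, 4.5%, 2.21% and 0.186% of all probe sets. The covariate itself differed between crushed and contralateral samples, so that this fit takes out what the members share with the markers and also loses precision. The SEs of Lss and Fdps at 1 week were larger than in the main fit. Mvd at 3 weeks lost its call although its log2 fold change was -1.04 or lower in every setting. For the other members called at 3 weeks the weakest value in any setting was above -1. It was -0.72 for Acss2, -0.71 for Elovl6, -0.83 for Lss and -0.94 for both Cyp51 and Idi1. That of Fdps was -0.62, with the mean over probe sets. The part of a fall shared with the markers and of lost precision in the lost calls was not tested.

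**Figure D5:**
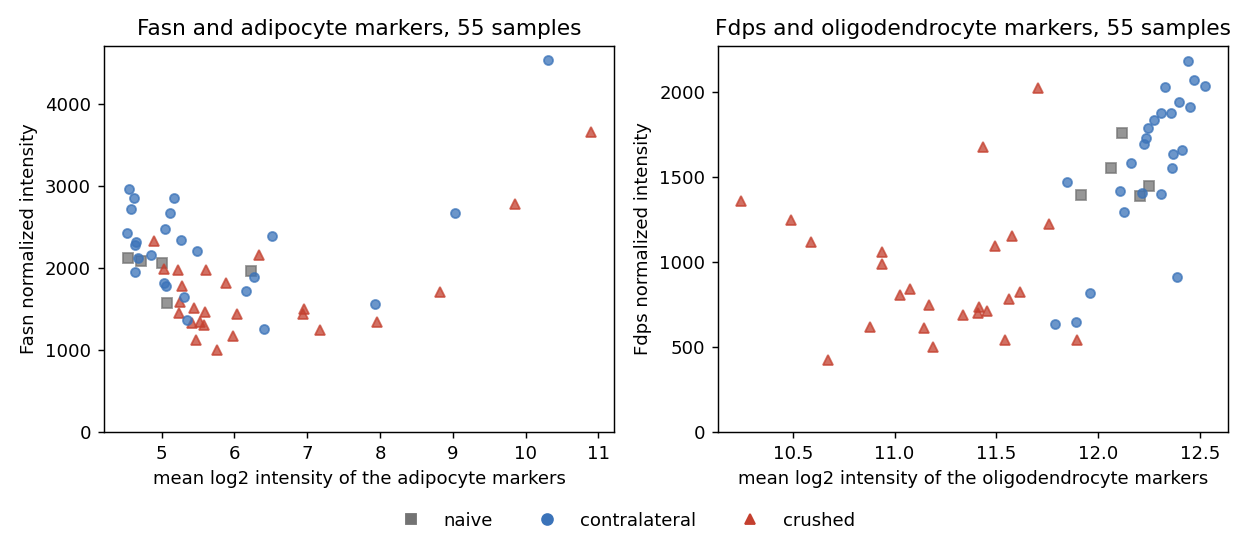
Left, intensity of Fasn against the mean log2 intensity of the adipocyte markers; right, intensity of Fdps against that of the oligodendrocyte markers, in all 55 samples. Squares are naïve, circles contralateral and triangles crushed samples; the samples above 10 on the left are pair 3 of 1 week, which also hold the highest Fasn values, and on the right the crushed samples of 1 day read 1120.1 to 2028 for Fdps, and those of 1 week 427 to 738, at overlapping marker levels.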

How the data were processed

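The arrays were run in 2 batches, 45 arrays from naïve mice and from 1 day to 3 weeks and 10 arrays of 3 months. The deposited values are intensities on a linear scale, which the authors made in DChip by invariant set normalization and a model of perfect match minus mismatch probes, each batch on its own. Of 22690 rows, 64 control rows were left out. Of the rest, 20380 probe sets had 1 gene symbol, 691 had several and 1555 had none, and only the first were used for genes. Intensities were set to at least 20, which applied to 9.90% of values, and taken as log2. A probe set entered a fit when at least 5 arrays reached 50. All 30 measured members entered every fit.

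Fits used limma 3.58.1 in R 4.3.3 (lmFit, then eBayes with an intensity trend), with p-values adjusted by Benjamini-Hochberg over all probe sets of a comparison. Crushed and contralateral samples of equal replicate number were paired by a fixed block. The study took its pairs from the 2 eyes of the same mice and used a paired test. The sample labels do not say that equal numbers mark the same mice. The 40 arrays of 1 day to 3 weeks shared 1 model, 3 months had its own, and contralateral against naïve used 25 arrays without pairs. Deviations of same-numbered samples had correlations from -0.446 to 0.52. The model of 1 day to 3 weeks was also run on simulated data, with independent samples, no pair effects and changes placed at 1 week only. This does not check the other fits or the real pairing and spread.

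The members and gene lists were chosen with earlier results of these data known. Every measured member was named, and values in every sample were given for the called members with the largest fold change, at most 4 a branch, and for the regulators. Of each other pathway list at most 3 called genes were named. Cyp51, Tm7sf2 and Fasn were given by sample after their values were seen. Alternatives covered the scaling, floor, filter, choice of probe set, model, call, covariates and each pair left out. The study's 3 criteria join a lower confidence bound of the fold change, a minimum difference and a paired t-test. They were rebuilt from the spread of the deposited intensities, not run in DChip, and can differ from the study's own calls. Upstream sequences were searched with Python 3.11.15.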

Additional observations from a re-analysis of the deposited data

Results flagged for a closer look

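In 11 of 330 sets of 5 samples, the highest or lowest sample of a member stood apart from the other 4 by Dixon's test, which chance flags in about 1 in 20 sets. Crushed sample 3 of 1 week accounted for 4 of these. It was the highest of its group for Fdft1 at 1445.92, Aacs at 547.95, Fasn at 3667.37 and Scd1 at 11837.81. This is the sample with a mean log2 level of adipocyte markers of 10.9, and the part of those markers in its values was not tested. At 3 months crushed sample 1 read 2159.33 for Idi1 and 14828.03 for Scd1, with a mean log2 level of adipocyte markers of 9.86. The others were Tm7sf2 in crushed sample 5 of 3 days at 620.34, Me1 in contralateral sample 5 of 1 week at 3452.09 and Scd1 in contralateral sample 2 of 1 week at 11533.36. Fads2 read 4928.31 in naïve sample 5 and 4659.29 in contralateral sample 1 of 3 months.

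For 4 members the log2 fold change at 1 day differed from that at 3 weeks by the contrast of the fitted crush terms. This is 4 of 30 members, a share near the 12.8% of all probe sets called in this contrast. Its change was -1.0298 for Fdps, -1.0443 for Cyp51, 1.0794 for Tm7sf2 and 1.1942 for Srebf1.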

How the results depend on the processing

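No member's log2 fold change that was called turned its sign in any alternative, among 3251 values that kept their side of the threshold, 51 that fell short of it and 74 that newly passed. The covariates for adipocyte and oligodendrocyte markers and the fit without pair 3 of 1 week were chosen after seeing the data. The number called lower, 2, 2, 10 and 7 at 1 day, 3 days, 1 week and 3 weeks, was 19, 20, 25 and 18 by the adjusted p alone, which also gave 2 higher at 3 days. At 1 day it was 1 after quantile normalization, with the oligodendrocyte covariate, by the study's 3 criteria and by the methods' t-test after adjustment. At 3 days it was 4 after quantile normalization or a shift to a common median. At 3 weeks it was 0 with the oligodendrocyte covariate, 0 by the study's 3 criteria and 2 by the methods' t-test after adjustment. Leaving out 1 pair gave 1 to 4 at 1 day, 2 to 3 at 3 days, 9 to 10 at 1 week and 5 to 8 at 3 weeks. The number lower by the adjusted p alone was 1, 10, 10 and 1 at these times with the oligodendrocyte covariate. The number higher by the adjusted p alone at 1 day was 1 after quantile normalization and 2 with the mean over probe sets or a separate model for each time. At 3 days it was 0 after quantile normalization, a common median, a separate model for each time, or the adipocyte or oligodendrocyte covariate, 1 without a filter, with the mean over probe sets or without an intensity trend, and 0 to 2 leaving out 1 pair. Of members whose fold change moved from 1 day to 3 weeks, 7 moved up and 9 down by the adjusted p alone, and leaving out 1 pair gave 1 to 2 up and 0 to 2 down. With the mean over probe sets 0 moved down, and with the photoreceptor covariate 1 did. The cause of these shifts was not tested. Contralateral against naïve gave 0 members in all 12 alternatives. Without the replicate block 1 member fell at 3 months by the adjusted p alone, and no other count moved by over 1.5 times. Same-numbered samples did not deviate together throughout, and 3 of 25 crushed samples correlated best with their own number.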

Other observations

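Markers of other cell types were counted in the same fits. From 1 day to 3 weeks 7.02%, 6.6%, 6.21% and 2.36% of all probe sets were called higher there, and 7.44%, 2.2%, 3.53% and 1.75% lower. At 3 months the shares were 0.207% and 0.255%. Of 10 markers of microglia and macrophages, 6 were called higher at 1 day, 3 days and 1 week, 3 at 3 weeks and 0 at 3 months, while Cx3cr1 was called lower at 1 day. Of 10 astrocyte markers 4 were called lower at 1 day (Gpr37l1, Aldoc, Gjb6 and Aqp4), and none was called at the later times. Egr2, of the 2 Schwann cell markers measured, was called higher from 1 day to 3 weeks, while the other, Ncmap, was not called at any time. No marker of meningeal fibroblasts (6 tested) or photoreceptors (8 tested) was called from 1 day to 3 weeks. The summed photoreceptor markers varied widely within groups, so the test had little power for them. At 1 week they ranged from 350 to 70095 in the contralateral and from 468 to 46927 in the crushed samples. At 3 months the ranges were 445 to 94295 and 362 to 49512. Pecam1, 1 of 5 endothelial markers, was called higher at 1 day and 3 days. Of 6 pigment cell markers Rpe65 and Rlbp1 were called lower at 1 day and Rlbp1 at 1 week. Of 4 skeletal muscle markers tested, Tnnt3 was called lower at 1 day and Tnni2 higher at 1 week. The part of these cells in the members' values was not tested.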
